A study of Mus musculus with 9 samples.

Results

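A panel of 8 genes widely used to recognise fibroblasts were followed through RNA from mouse melanoma tumours: Pdgfra, Fap, Dcn, Lum, Thy1, Pdpn, S100a4 and Il6. They were taken by symbol from 54532 entries (54427 distinct symbols), and all 8 of 8 members were found, each on 1 entry. B16-F10, a C57BL/6 mouse melanoma line, carried either a control shRNA (short hairpin RNA) or an shRNA against Fbxo38, of which there were 2. Fbxo38 encodes a substrate-recognition subunit of an SCF ubiquitin ligase. The cells were injected under the skin of C57BL/6 mice, and whole tumours were taken on day 16 for RNA sequencing. There were 3 groups of 3 libraries, named here control, hairpin 1 and hairpin 2. The control libraries carry the genotype label WT and the treatment label none. The mice themselves carry no stated allele, and the hairpins were introduced in the tumour cells before injection, so host fibroblasts were not given them. All groups rest on 1 tumour line, and the labels do not say whether the libraries of a group came from separate mice. The p-values below therefore measure the spread between these libraries, which may be technical.

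Library totals ran from 15322163 to 17342554 counts. Fbxo38 stood at 27.9 ± 5.42 CPM (counts scaled to the TMM-adjusted library total, SD, n = 3) in control, 26.0 ± 7.87 (n = 3) in the libraries labelled hairpin 1 and 14.7 ± 5.39 (n = 3) in those of hairpin 2. Its log2 fold change was -0.10 (SE 0.28, edgeR adjusted p = 1.00) for the label hairpin 1, so a fall was not shown there. The hairpin 1 libraries are therefore named by their label only. For hairpin 2 it was -0.92 (SE 0.29, confidence limits -1.56 to -0.28, edgeR unadjusted p = 0.00964, adjusted p = 0.254). The hairpin 2 libraries, at 20.96, 11.39 and 11.88 CPM, all lay below the lowest control at 21.66 CPM, replicate 1 by a small margin. Fbxo38 thus read lower in hairpin 2, but this did not pass after adjustment over all genes. In a principal component analysis, the axis of most variance (35.8%) set 2 libraries apart, replicate 1 of the hairpin 1 label at 60.6 and replicate 2 of hairpin 2 at -54.8, and the other 7 fell between -21.5 and 30.7. Melanocyte markers summed to 21943 to 28532 CPM, led by the pigment-cell genes Dct, Tyrp1 and Pmel. Erythroid markers, which follow blood in the tissue, reached 21541 CPM in hairpin 2 replicate 2.

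Fibroblasts are the matrix-producing cells of connective tissue, and those of a tumour lay down collagen and proteoglycans, signal to immune cells and contract. PDGFRA is the receptor for platelet-derived growth factor that resting dermal fibroblasts carry, and FAP is a surface serine protease made by activated stromal fibroblasts. Decorin and lumican, the products of Dcn and Lum, are small leucine-rich proteoglycans that bind collagen fibrils. THY1 and podoplanin (Pdpn) are surface glycoproteins that fibroblasts share with other cells: mouse T cells carry THY1, and lymphatic endothelium carries podoplanin. S100A4, a calcium-binding protein once called fibroblast-specific protein, is also made by leukocytes, and interleukin 6 (Il6) is a cytokine of inflammatory fibroblasts, macrophages and some tumour cells.

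The RefSeq promoter table (GRCm38.p6) held 4 of the 8 members, Pdgfra, Pdpn, S100a4 and Il6. The 250 bases before the start of 3 of them are shown because S100a4 and Il6 were the 2 members counted too rarely to be tested, and because Pdgfra is the tested member with a promoter in the table on which the comparisons below turn. Each is written 5′ to 3′ on the gene's strand, with matches to the motifs in capitals.
Pdgfra: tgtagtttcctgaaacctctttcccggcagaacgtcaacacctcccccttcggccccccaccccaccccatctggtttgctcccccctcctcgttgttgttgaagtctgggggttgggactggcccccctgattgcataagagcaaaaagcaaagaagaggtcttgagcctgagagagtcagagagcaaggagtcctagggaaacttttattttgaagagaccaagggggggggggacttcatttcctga
S100a4: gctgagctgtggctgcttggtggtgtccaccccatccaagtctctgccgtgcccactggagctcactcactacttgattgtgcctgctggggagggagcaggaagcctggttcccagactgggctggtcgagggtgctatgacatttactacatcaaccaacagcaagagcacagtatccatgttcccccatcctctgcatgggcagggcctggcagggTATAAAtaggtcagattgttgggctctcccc
Il6: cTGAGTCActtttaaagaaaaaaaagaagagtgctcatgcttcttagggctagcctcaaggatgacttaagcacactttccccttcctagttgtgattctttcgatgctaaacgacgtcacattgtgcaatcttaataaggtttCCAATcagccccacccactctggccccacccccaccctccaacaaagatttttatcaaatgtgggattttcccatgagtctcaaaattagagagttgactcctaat
These windows are chr5:75152001-75152250, chr3:90603520-90603769 and chr5:30012864-30013113, all on the plus strand. The motifs searched on both strands were TATAAA of the TATA box, the CCAAT box, CACCTG, an E-box that Twist and Snail family factors bind, TGANTCA of AP-1 and TTCNNNGAA of STAT factors. None of these contains another. The S100a4 window held TATAAA from 31 to 26 bases before the start, a match found in 12.4% of 32851 promoter windows of the same length. The Il6 window held CCAAT from 106 to 102 bases before the start, as 33.9% of windows do, and TGANTCA (read TGAGTCA) from 249 to 243 bases before it, as 6.75% do. Pdgfra and Pdpn held none of the 5, and the E-box and the STAT motif were in none of these 4 windows. The Il6 window was 42.8% G and C and that of S100a4 57.2%, against a median of 52.4% over all windows. These matches describe letters and not binding sites.

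The abundance of the members was compared per kilobase of the longest annotated transcript. Over the 9 libraries Pdpn stood highest at 13.1 CPM per kb, followed by Thy1 at 10.2. Dcn at 0.854, S100a4 at 0.553, Lum at 0.358, Pdgfra at 0.314, Fap at 0.265 and Il6 at 0.254 CPM per kb were all far lower. Pdpn and Thy1 overlapped between libraries, and so did neighbours among the last 6, so the order within each set does not go beyond their spread. Most of the fibroblast panel was thus read from few counts a library, and for S100a4 from 40 and for Il6 from 86 counts over all 9 libraries together. In whole tumours, fewer cells of a type and less RNA per cell cannot be told apart.

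**Figure D1:**
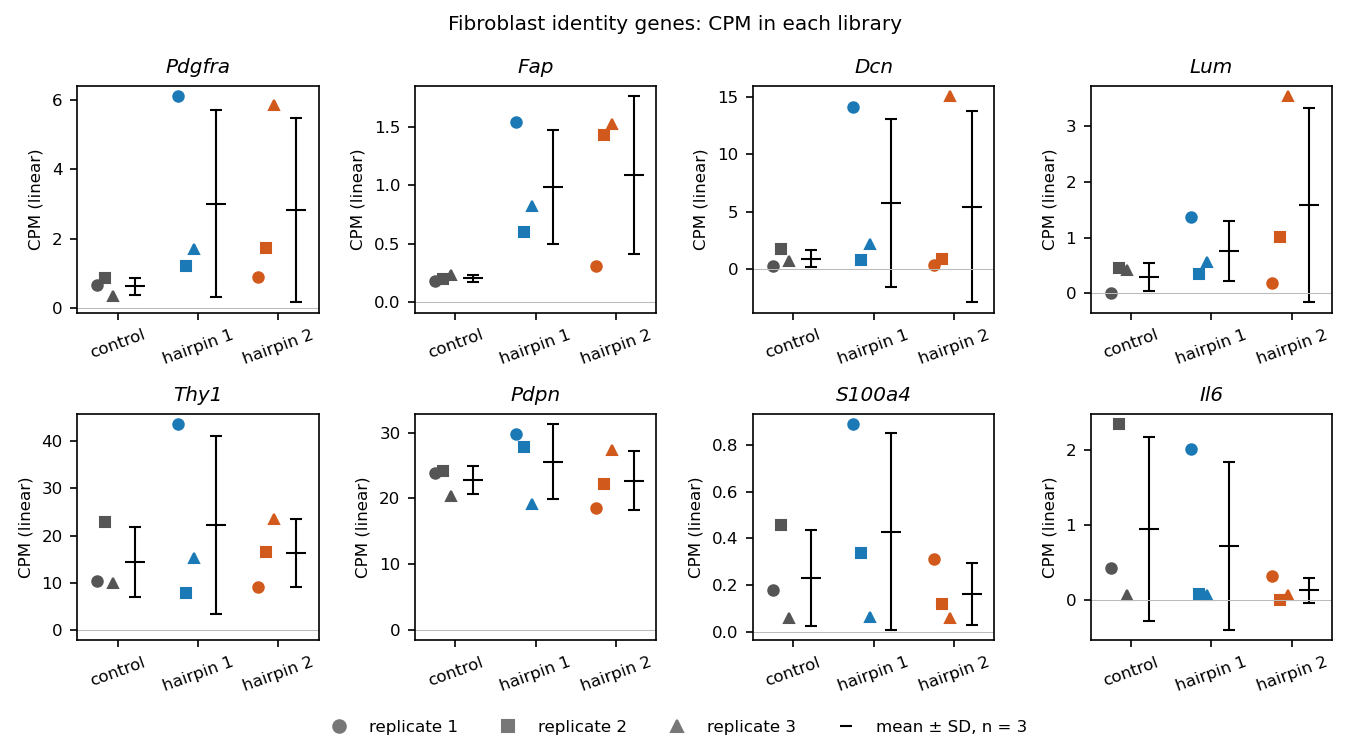
Level of each gene in CPM (linear axes) by group, with a point for each library and the group mean with its SD. Pdgfra and Fap lie higher in all 6 hairpin libraries than in the 3 controls, while the points of the other 6 genes overlap between groups.

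The clearest difference was in the growth factor receptor and the protease. Pdgfra and Fap were each higher in all 6 hairpin libraries than in all 3 controls, as were 1.36% of the tested genes, with a log2 fold change of 2.17 to 2.37, but neither passed the threshold after adjustment over all genes. Pdgfra (ENSMUSG00000029231.15, chr5:75152292-75198215 on the plus strand, GRCm38) read 0.656, 0.850 and 0.357 CPM in the controls. It read 6.10, 1.21 and 1.71 CPM in the libraries labelled hairpin 1, and 0.879, 1.73 and 5.85 CPM in those of hairpin 2. The groups did not overlap, but by a small margin: the lowest hairpin library had 14 counts and the highest control 13. Most of the difference in the mean, from 0.621 ± 0.248 CPM (SD, n = 3) to 3.01 ± 2.69 and 2.82 ± 2.66 (SD, n = 3 each), came from replicate 1 labelled hairpin 1 and from hairpin 2 replicate 3, and each difference of means was smaller than the SD of its hairpin group. In edgeR the log2 fold change was 2.27 (SE 0.84; 95% confidence limits 0.39 to 4.15, edgeR unadjusted p = 0.0227, Benjamini-Hochberg adjusted p = 1.00) for the label hairpin 1 and 2.17 (SE 0.84, 0.30 to 4.05, unadjusted p = 0.0274, adjusted p = 0.292) for hairpin 2. Without replicate 1 labelled hairpin 1 the first was 1.21 (edgeR unadjusted p = 0.142), and without hairpin 2 replicate 3 the second was 1.07 (unadjusted p = 0.191).

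Fap (ENSMUSG00000000392.17, chr2:62500943-62574075 on the minus strand) spread less within groups than Pdgfra. Its controls held only 3, 3 and 4 counts, too few to show that the gene was steady. The controls read 0.179, 0.196 and 0.238 CPM, the libraries labelled hairpin 1 1.54, 0.605 and 0.821 CPM, and the hairpin 2 libraries 0.314, 1.43 and 1.52 CPM. No control overlapped a hairpin library, and hairpin 2 replicate 1 lay nearest to the controls, with 5 counts against a highest control count of 4. Summed over 3 libraries, these are 10 counts in control, 48 in the hairpin 1 label and 54 in hairpin 2. The means were 0.204 ± 0.0303, 0.989 ± 0.489 and 1.09 ± 0.673 CPM (SD, n = 3 each). The fitted log2 change was 2.24 (SE 0.71, 95% interval 0.65 to 3.82, edgeR unadjusted p = 0.0102, adjusted p = 1.00) for the label hairpin 1 and 2.37 (SE 0.71, 0.80 to 3.95, unadjusted p = 0.00722, adjusted p = 0.248) for hairpin 2. Its range with 1 library left out at a time was 1.75 to 2.48 for the first and 2.06 to 2.81 for the second, and without replicate 1 labelled hairpin 1 the first had an unadjusted p of 0.0499. No control library reached the count minimum of 10 for Fap, so the gene entered the test through the hairpin libraries alone.

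The collagen-binding proteoglycans varied more between libraries than between groups. Dcn (ENSMUSG00000019929.16) read 0.239, 1.70 and 0.714 CPM in the controls, 14.2, 0.807 and 2.21 in the libraries labelled hairpin 1, and 0.314, 0.895 and 15.1 in those of hairpin 2. Replicate 1 labelled hairpin 1 and hairpin 2 replicate 3 stood far above the other 7 libraries, whose values overlapped across the 3 groups. From its lowest to its highest library Dcn spanned 63.0-fold, against 17.1-fold for Pdgfra and 1.61-fold for Pdpn. The log2 fold change of Dcn was 2.70 (SE 1.63, 95% interval -1.10 to 6.50, edgeR adjusted p = 1.00) for the label hairpin 1 and 2.62 (SE 1.63, -1.18 to 6.41, adjusted p = 0.492) for hairpin 2. Without those high libraries the fitted values were 0.77 and -0.52, so each depended on 1 library. Without control replicate 2, the highest control, they were 3.56 and 3.46.

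Lum (ENSMUSG00000036446.5), the neighbour of Dcn, read 0, 0.457 and 0.416 CPM in the controls, and the count of 0 in control replicate 1 allows up to 0.179 CPM. The libraries labelled hairpin 1 read 1.36, 0.336 and 0.568 CPM and those of hairpin 2 read 0.188, 1.01 and 3.53 CPM. The hairpin libraries overlapped the controls in both groups, with the same 2 libraries highest as for Dcn. The fitted log2 change was 1.37 (SE 1.15, 95% interval -1.20 to 3.94, edgeR adjusted p = 1.00) for the label hairpin 1 and 2.42 (SE 1.13, -0.11 to 4.94, adjusted p = 0.363) for hairpin 2. Leaving out replicate 1 labelled hairpin 1 gave 0.62, and leaving out hairpin 2 replicate 3 gave 1.04. As with Fap, no control library had 10 counts of Lum. On chromosome 10 of GRCm38, Dcn at chr10:97479609-97518143 and Lum at chr10:97565128-97572703, both on the plus strand, are 46984 bases apart with 0 annotated genes wholly between them.

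The surface glycoproteins were the best counted members, with 116 to 737 counts a library for Thy1 and 296 to 504 for Pdpn, and neither differed between groups beyond the spread. Thy1 (ENSMUSG00000032011.5, chr9:44043384-44048579 on the plus strand) read 10.4, 22.9 and 9.94 CPM in the controls, 43.6, 7.80 and 15.3 in the libraries labelled hairpin 1, and 9.10, 16.6 and 23.5 in those of hairpin 2. The groups overlapped, and replicate 1 labelled hairpin 1 alone stood above all controls by a wide margin. The fitted log2 change was 0.63 (SE 0.66, 95% interval -0.89 to 2.15, edgeR adjusted p = 1.00) and 0.19 (SE 0.66, -1.34 to 1.71, adjusted p = 0.919). Its direction turned to -0.33 for the label hairpin 1 without that replicate. Pdpn (ENSMUSG00000028583.14, chr4:143267431-143299564 on the minus strand) read 23.9, 24.1 and 20.4 CPM in the controls, 29.8, 27.9 and 19.1 in the libraries labelled hairpin 1, and 18.6, 22.3 and 27.4 in those of hairpin 2. These values overlapped, at means of 22.8 ± 2.08, 25.6 ± 5.70 and 22.7 ± 4.41 CPM (SD, n = 3 each). Here the intervals were narrow, a log2 fold change of 0.17 (SE 0.19, 95% interval -0.26 to 0.60, edgeR adjusted p = 1.00) for the label hairpin 1 and of -0.004 (SE 0.19, -0.44 to 0.43, adjusted p = 0.995) for hairpin 2.

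The calcium-binding protein and the cytokine were near the limit of counting. S100a4 (ENSMUSG00000001020.8, chr3:90603771-90606045 on the plus strand) had 3, 7 and 1 counts in the controls, 15, 5 and 1 in the libraries labelled hairpin 1 and 5, 2 and 1 in those of hairpin 2. The groups overlapped at 0.232 ± 0.204, 0.429 ± 0.420 and 0.165 ± 0.132 CPM (SD, n = 3 each). Of the 584 exonic bases of S100a4 in GENCODE M21, 302 (51.7%) are shared with the same-strand gene Gm42674, which is listed at 0 counts in all 9 libraries. Counting rules differ in how they treat shared bases, so the level of S100a4 is uncertain, and the part of this overlap in its low counts was not tested. Il6 (ENSMUSG00000025746.11, chr5:30013114-30019981 on the plus strand) had 7, 36 and 1 counts in the controls, 34, 1 and 1 in the libraries labelled hairpin 1 and 5, 0 and 1 in those of hairpin 2. Control replicate 2 and replicate 1 labelled hairpin 1 held most of them, at 2.35 and 2.01 CPM, and the count of 0 allows up to 0.179 CPM. The groups overlapped, and neither gene passed the filter on low counts.

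Set against all genes, 0 of the 6 tested members passed the edgeR threshold in any of the 4 comparisons, as did 0% of the 14193 genes tested. At an unadjusted edgeR p under 0.05, Pdgfra and Fap were higher in each comparison with control, where the share of all genes higher was 1.85% for the label hairpin 1, 8.14% for hairpin 2 and 3.92% for the mean of both. Fap entered the test only through the hairpin libraries. Pdgfra had 11, 13 and 6 counts in the controls, and could not have passed the filter without a hairpin library. Their counts are therefore a description and give no support here or in the next classes. In DESeq2, 2, 3 and 3 members were higher at an unadjusted p under 0.05, beside 313, 1207 and 638 of all 14193 genes. None of the members that had an adjusted p passed the threshold. For hairpin 2 against control DESeq2 gave no adjusted p for 4 of the 6 (Pdgfra, Fap, Dcn and Lum), so it could not call them there. Limma-voom called 0, with 1 higher at an unadjusted p under 0.05 in each, beside 210, 1105 and 468 of all 14193 genes. Of all tested genes, 4.09% had every library labelled hairpin 1 above every control, 10.6% every hairpin 2 library, and 1.36% all 6 hairpin libraries. Pdgfra and Fap were the 2 members of 8 in each of these classes. Without the 2 libraries apart on the principal component, 5 members were tested. At an unadjusted edgeR p under 0.05, 0 were higher for the label hairpin 1 and 2 for hairpin 2, beside 263 and 784 of all 14306 genes. In that fit Pdgfra was at 1.21 and 2.40 and Fap at 1.75 and 2.11 on the log2 scale. Both hairpin comparisons use the same 3 controls, so they are not separate pieces of evidence. The fitted mean of both hairpins against control was 2.22 (SE 0.78, edgeR adjusted p = 0.674) for Pdgfra and 2.30 (SE 0.66, 95% interval 0.85 to 3.76, adjusted p = 0.674) for Fap on the log2 scale. Dcn was at 2.66 (SE 1.52, adjusted p = 0.733), Lum at 1.90 (SE 1.04, adjusted p = 0.720), Thy1 at 0.41 and Pdpn at 0.08.

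**Figure D2:**
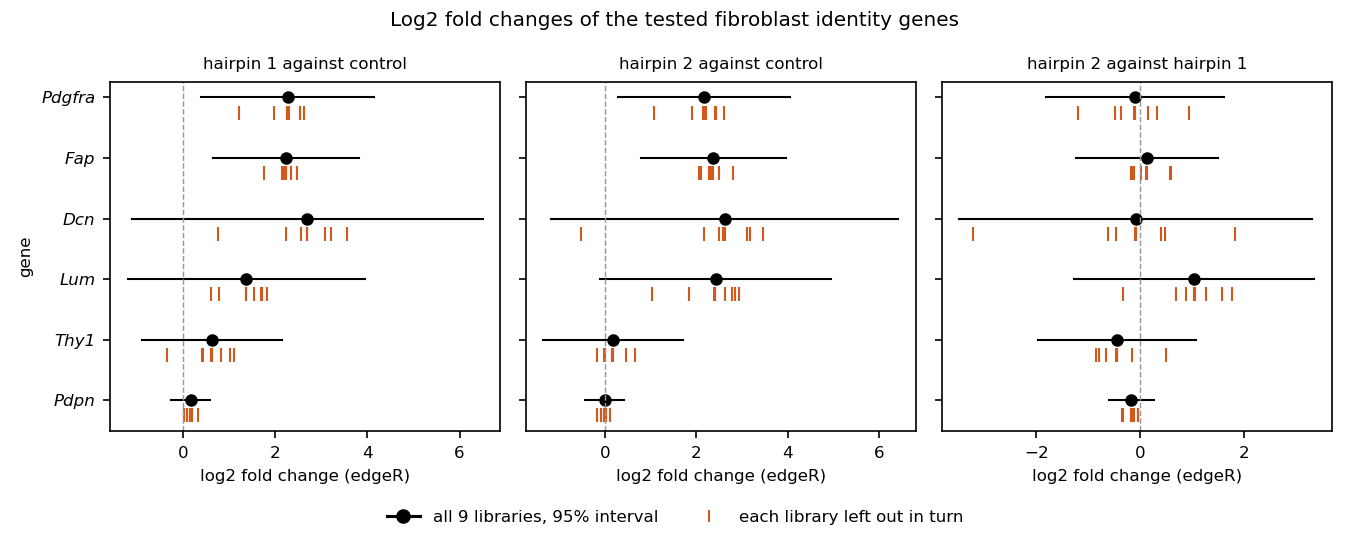
Log2 fold change of the 6 tested genes with 95% intervals derived from the edgeR F test (black), for each hairpin against control and for hairpin 2 against hairpin 1, and the value with each library left out in turn (orange ticks). The intervals of Pdgfra and Fap lie above 0 in both comparisons, those of Dcn and Lum are wide, and those of Pdpn against control run from -0.44 to 0.60.

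Between the hairpins no member differed at an unadjusted edgeR p under 0.05, in either direction, where 6.43% of genes were higher and 5.23% lower in hairpin 2. The intervals were wide for the genes of low count. Fap differed by 0.14 (SE 0.62, 95% interval -1.24 to 1.51) and Pdgfra by -0.10 (SE 0.76, -1.81 to 1.61) on the log2 scale. Dcn differed by -0.08 (SE 1.46, -3.48 to 3.32) and Lum by 1.05 (SE 1.03, -1.26 to 3.36). These intervals leave room for several-fold differences between the hairpins either way. The adjusted p ran from 0.707 to 0.989 over the 6 tested members.

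Whether the members varied together across libraries was tested over the 28 pairs, on the log2 scale of CPM (prior count 2), by exact permutation of pairings, two-sided and adjusted over the 28 pairs. In all, 7 pairs passed by Pearson's r and 2 of these also by Spearman's rho. The share of pairs of other genes that would pass was not measured. Libraries were permuted across the 3 groups, so differences between groups enter these p-values. The members were also chosen with earlier results of these data known. The passing pairs are therefore a description, and do not show that the members vary together more than other genes do. For Pdgfra and Fap, r was 0.884 (exact permutation p = 0.00038, adjusted p = 0.0107) and rho 0.95 (exact permutation p = 0.000353, adjusted p = 0.00988). For the neighbours Dcn and Lum, r was 0.874 (exact permutation p = 0.000967, adjusted p = 0.0135) and rho 0.933 (exact permutation p = 0.00075, adjusted p = 0.0105). Both pairs kept a positive r over the 7 libraries left without replicate 1 labelled hairpin 1 and hairpin 2 replicate 3, at 0.840 (exact permutation p = 0.0169) and 0.745 (exact permutation p = 0.0496), with no adjustment. Fap and Lum followed, at r 0.823 (exact permutation p = 0.0025, adjusted p = 0.0220; rho 0.833, exact permutation p = 0.00827, adjusted p = 0.0603) and 0.761 (exact permutation p = 0.0242) without control replicate 1 and replicate 1 labelled hairpin 1.

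The other 4 pairs had an exact permutation p above 0.05 without the 2 libraries farthest from the median. With 7 libraries left, this does not show that they depended on those libraries. Pdgfra with Dcn had r 0.887 (exact permutation p = 0.00416, adjusted p = 0.0233; rho 0.783, p = 0.0172) and 0.464 (p = 0.298) over 7 libraries. Pdgfra with Lum had r 0.798 (exact permutation p = 0.00954, adjusted p = 0.0382; rho 0.8, p = 0.0138) and 0.497 (p = 0.254). Dcn with Thy1 had r 0.848 (exact permutation p = 0.00314, adjusted p = 0.0220; rho 0.783, p = 0.0172) and 0.667 (p = 0.114). S100a4 with Il6 had r 0.819 (exact permutation p = 0.00643, adjusted p = 0.0300; rho 0.817, p = 0.0108), and 0.484 (p = 0.290) without control replicate 2 and replicate 1 labelled hairpin 1. S100a4 and Il6 did not pass the filter on low counts, and their pair did not pass with a prior count of 0.5. In all 4 pairs the adjusted p of rho was 0.0603. Taken as deviations from the group means, which removes the differences between groups, r was 0.773 for Pdgfra and Fap, 0.921 for Pdgfra and Dcn, 0.910 for Dcn and Lum and 0.884 for S100a4 and Il6, as a description.

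**Figure D3:**
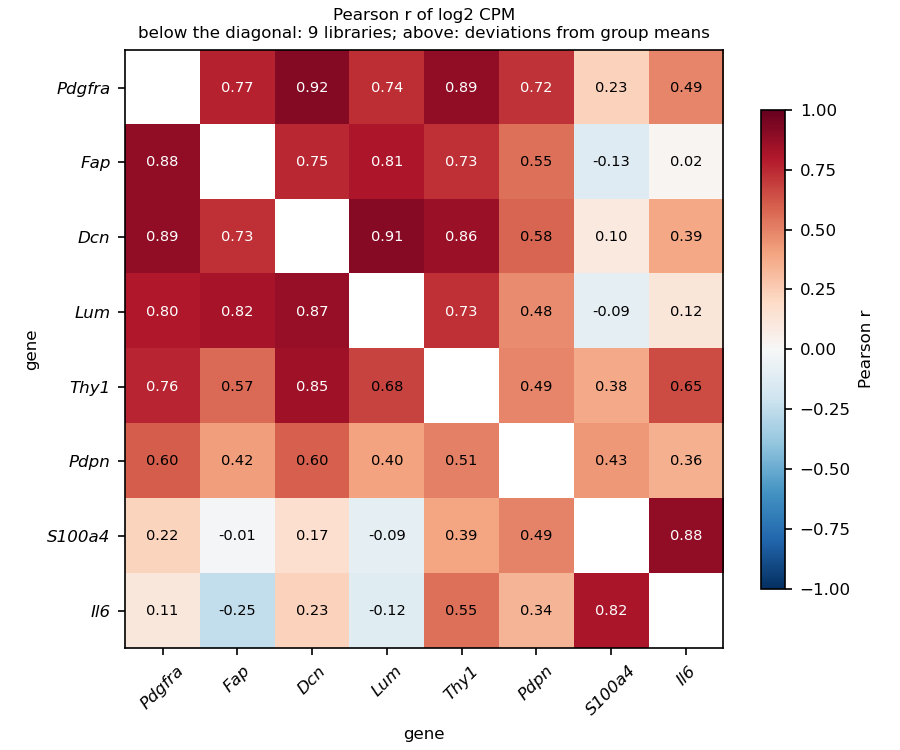
Pearson r of log2 CPM for each pair of the 8 genes, over 9 libraries below the diagonal and over deviations from group means above it. Pdgfra, Fap, Dcn, Lum and Thy1 form a block of positive r over 9 libraries, and Pdpn has r from 0.40 to 0.60 with each of them. S100a4 and Il6, both too low in counts to pass the filter, have r 0.82 with each other. Il6 has r -0.25 with Fap, 0.23 with Dcn and 0.55 with Thy1.

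The libraries therefore ranked differently by the matrix genes and by the cytokine. Replicate 1 labelled hairpin 1 was the highest library for Pdgfra, Fap, Thy1, Pdpn and S100a4 and second for Dcn, Lum and Il6. That library also had the highest mitochondrial share of counts, 6.29%, followed by control replicate 2 at 4.47%. The part of this share in the member values was not tested. Hairpin 2 replicate 3 was the highest for Dcn and Lum, yet had 1 count of Il6 and 1 of S100a4. Control replicate 2 was the highest for Il6, with 36 counts, while its Fap stood at 3.

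**Figure D4:**
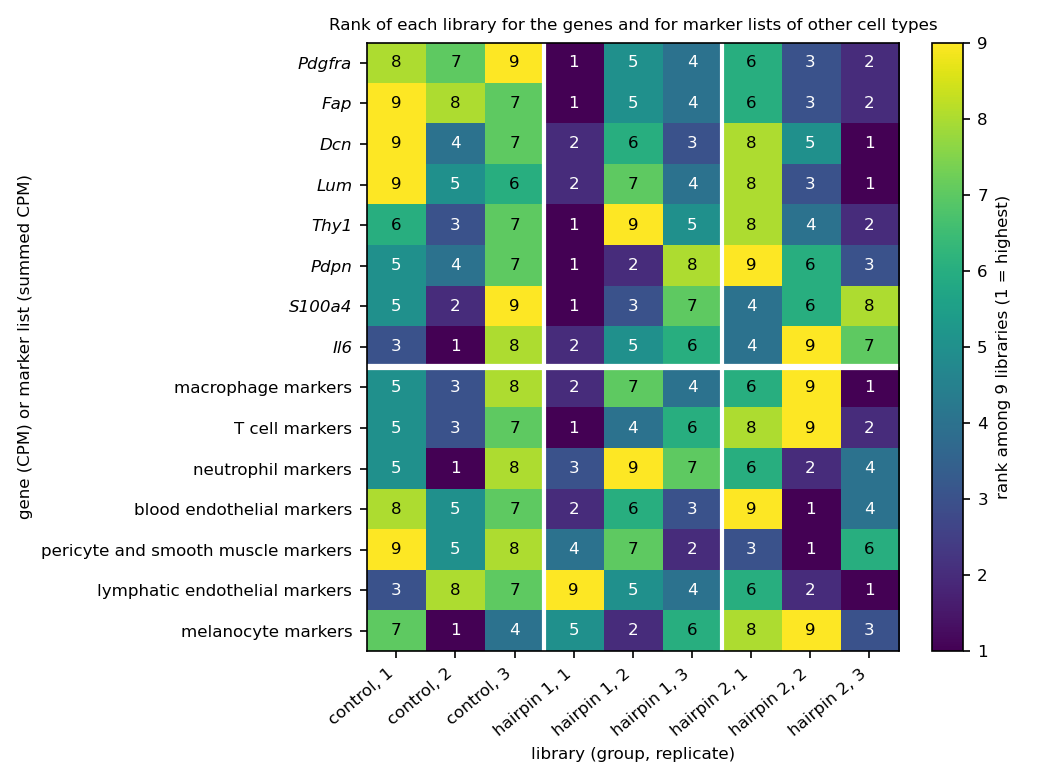
Rank of each of the 9 libraries (group, replicate) for each of the 8 genes by CPM and for 7 marker lists by summed CPM, with 1 for the highest. Replicate 1 labelled hairpin 1 ranks 1 or 2 for all 8 genes, and hairpin 2 replicate 3 ranks 1 to 3 for the upper 6 but 8 for S100a4 and 7 for Il6.

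Other cell types that make these proteins were read from marker lists in the same libraries. Macrophage markers, 10 genes with Csf1r and C1qa among them, summed to 178, 409 and 152 CPM in the controls, 454, 165 and 200.3 in the libraries labelled hairpin 1 and 169, 45.6 and 537 in those of hairpin 2. The 2 libraries highest in macrophage markers were also the 2 highest in Dcn. Control replicate 2 ranked 3 of 9 in macrophage markers, with 409 CPM, and 4 of 9 in Dcn, with 1.70 CPM. The 2 highest, replicate 1 labelled hairpin 1 and hairpin 2 replicate 3, were also highest in T cell markers, at 29.4 and 27.2 CPM. They were highest in adipocyte markers too, at 46.2 and 61.5 CPM, but were not the top 2 in any other marker list. The adipocyte sum rested mostly on 2 genes. Fabp4 averaged 18.0, 23.4 and 23.0 CPM and Lpl 12.4, 11.6 and 16.0 in control, hairpin 1 label and hairpin 2. Adipoq reached at most 0.457 CPM and Lep was at 0 in every library, so this sum does not by itself show adipocytes. T cell markers, 12 genes with Cd3e among them, ran from 9.88 to 23.1 CPM in control, from 11.1 to 29.4 in the hairpin 1 label and from 4.59 to 27.2 in hairpin 2. Pericyte and smooth muscle markers ran from 68.5 to 109, from 98.6 to 135 and from 105 to 277 CPM, and blood endothelial markers from 156 to 174, from 165 to 254 and from 149.9 to 283 CPM. Keratinocyte markers reached at most 2.62 CPM, with Krt5, Krt14, Krt1, Lor, Dsg1a and Krt15 at 0 in every library, and Ly6g of the neutrophil list was at 0 in every library as well. None of 10 chosen pairs of a member and a marker list passed by exact permutation, the lowest adjusted p being 0.485 for Thy1 with T cell markers (r 0.638, exact permutation p = 0.0642; rho 0.567, p = 0.121; r 0.584 without 2 libraries) and for Il6 with macrophage markers (r 0.594, exact permutation p = 0.0970; rho 0.533, p = 0.147; r 0.258 without 2 libraries). Pdpn against lymphatic markers had r 0.07 (exact permutation p = 0.864) and Pdgfra against melanocyte markers 0.13 (exact permutation p = 0.734). Fap, Dcn and Lum were in none of the chosen pairs, so their relation to the macrophage and T cell markers was not tested. The part of these cell types in the member levels was not tested beyond this.

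Transcript length also moved with the libraries. The rank correlation across 14109 genes between transcript length and a gene's deviation from its mean, where genes are not independent replicates, was 0.33, 0.32 and 0.11 in the hairpin 2 libraries and between -0.23 and -0.01 in control. In the libraries labelled hairpin 1 it was -0.31, -0.09 and 0.02. The longest transcript of Pdgfra has 6834 bases and that of Fap 2867, against a median of 3205 over these genes. The part of transcript length in the member values was not tested.

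The genes whose pattern over the 9 libraries was most like each tested member were drawn from all tested genes, as a description of log2 CPM. Pdgfra was followed most closely by Col3a1 (a fibrillar collagen chain, r 0.971), Vwf (von Willebrand factor, r 0.969) and Sulf1 (an extracellular sulfatase, r 0.969). Col3a1 averaged 57.5 CPM in control, 325 in the hairpin 1 label and 194 in hairpin 2. Fap was followed by Id3 (a transcriptional inhibitor, r 0.972), Gpm6b (a membrane proteolipid, r 0.969) and Eln (elastin, r 0.965), and Eln averaged 0.627, 3.77 and 7.73 CPM. Dcn was nearest to Ccdc80 (r 0.971), Pea15a (r 0.969) and Gm10273 (r 0.962), and Lum to Igdcc4 (r 0.949), Myo1d (r 0.946) and Nbl1 (r 0.944). Thy1 was nearest to Dusp23 (r 0.961), Ace (r 0.954) and Ctgf (r 0.948), and Pdpn to Fhad1 (r 0.966), Cyb561a3 (r 0.945) and Gpx1 (r 0.937). These are the highest of 14193 genes over 9 libraries that share depth and composition, and no level of r that chance would give was measured.

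Genes related to the members by function or cell type were read as 9 lists. No gene of any list passed the edgeR threshold in either comparison with control, so the lists are given by counts at an unadjusted p under 0.05 and by medians, beside a median of 0.01 over all tested genes in both comparisons. The share of all genes at that p was given above for higher genes, and for lower genes it was 1.32% in the label hairpin 1 and 6.27% in hairpin 2. The medians cover only genes that passed the filter. Some of these did so only through hairpin libraries, such as Dpt at 0.0871 CPM in control, named after its values were seen. The medians are therefore a description and give no support. Of 25 fibroblast surface and lineage genes 18 were tested: 4 were higher and 0 lower in the hairpin 1 label (median log2 fold change 0.94), and 4 higher and 1 lower in hairpin 2 (median 0.80). Without replicate 1 labelled hairpin 1, a comparison chosen after seeing the data like the others without libraries in these lists, 1 was higher in that label (median 0.40), and without hairpin 2 replicate 3 the median of hairpin 2 was 0.32. Without the 2 libraries apart on the principal component, 7 were higher in hairpin 2. Its 3 most abundant genes did not pass the test. Gsn, the actin-severing gelsolin, stood at 126 ± 20.01, 144 ± 11.1 and 134 ± 9.36 CPM in control, hairpin 1 label and hairpin 2, Fbln1, a matrix glycoprotein, at 293 ± 6.78, 303 ± 56.2 and 289 ± 20.5, and Ddr2, a collagen receptor, at 135 ± 31.4, 152 ± 29.9 and 180 ± 32.7 (SD, n = 3 each). Of 15 myofibroblast-type genes 14 were tested, with 3 higher in the hairpin 1 label (median 1.75) and 1 in hairpin 2 (median 0.74). These were Lrrc15, Cthrc1 and Itga11 in the first and Itga11 again in the second, named here after their values were seen. None of them had a control library at the count minimum of 10, so all entered the test through hairpin libraries and their counts give no support. Without hairpin 2 replicate 3, 0 were higher in hairpin 2. Without replicate 1 labelled hairpin 1 that label had 1 higher (median 0.56), and hairpin 2 had 3 in that fit. The medians over all libraries are the same with Cthrc1, at 0 in every control, set to the lower bound that 3 counts over the control group give. Acta2, smooth muscle actin, averaged 45.2 ± 20.4, 75.6 ± 55.7 and 40.6 ± 17.5 CPM, Tnc, the matrix protein tenascin C, 19.6 ± 14.96, 90.7 ± 135 and 25.5 ± 28.2, and Adam12, a metalloprotease, 196 ± 118, 217 ± 141 and 289 ± 147 (SD, n = 3 each).

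Inflammatory fibroblast genes, the list to which Il6 belongs by function, differed in sign between the hairpins, but only with 1 library in place, and the difference was not tested as a list. Of 16 listed, 13 were tested: all 13 had a positive log2 fold change in the hairpin 1 label, 2 of them at an unadjusted edgeR p under 0.05 (median 0.84), against 5 positive and 1 at that p in hairpin 2 (median -0.22). The share of all tested genes with a positive value was 52.6% and 51.5%. Without replicate 1 labelled hairpin 1, 3 of the 13 were positive in that label, with a median of -0.52. Cxcl12, a chemokine of stromal cells, averaged 7.57 ± 2.22, 13.5 ± 14.4 and 7.25 ± 2.53 CPM, C3, the complement component, 5.602 ± 5.71, 10.8 ± 4.71 and 12.1 ± 14.7, and Nfkbia, an inhibitor of NF-kappa-B, 18.0 ± 6.54, 20.6 ± 8.84 and 15.4 ± 1.04 (SD, n = 3 each). In the IL-6 pathway, 17 of 19 were tested, with 0 changed in the hairpin 1 label and 2 higher and 1 lower in hairpin 2 at an unadjusted p under 0.05 (medians 0.11 and 0.19). Leaving out replicate 1 labelled hairpin 1 gave a first median of 0.03 and 5 higher in hairpin 2, and without hairpin 2 replicate 3 the second median was 0.05. Its receptor chain Il6st stood at 118 ± 21.4, 131 ± 26.0 and 147 ± 3.52 CPM and the transcription factor Stat3 at 251 ± 51.5, 306 ± 45.5 and 299 ± 50.7 (SD, n = 3 each). These 2 parts were well counted where Il6 itself was not, but the receptor gene Il6ra averaged only 1.64 ± 0.569, 2.35 ± 0.707 and 2.04 ± 0.976 CPM.

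Of the PDGF ligands and receptors, 5 of 6 were tested, with 2 higher in the hairpin 1 label and 1 in hairpin 2 at an unadjusted edgeR p under 0.05 (medians 0.78 and 0.00). Without replicate 1 labelled hairpin 1 that label had 0 higher and a median of 0.00. The ligands Pdgfa (12.4 ± 3.15, 16.8 ± 8.06 and 10.9 ± 1.24 CPM) and Pdgfb (16.5 ± 3.79, 19.5 ± 5.87 and 16.1 ± 3.43 CPM) stayed within their spread (SD, n = 3 each). Pdgfrb, the receptor of pericytes and fibroblasts, averaged 18.9 ± 6.43, 32.7 ± 10.1 and 38.8 ± 14.2 CPM (SD, n = 3 each), a log2 fold change of 0.79 (edgeR unadjusted p = 0.0498) and 1.04 (unadjusted p = 0.0160), neither past the adjusted threshold. Among the small leucine-rich proteoglycans other than Dcn and Lum, 6 of 14 were tested, with 1 and 3 higher (medians 1.38 and 1.28). Of the 3, Fmod, named after its values were seen, also had no control library at 10 counts. Without replicate 1 labelled hairpin 1 and without hairpin 2 replicate 3 each of these medians was lower, at 0.87 and 0.83, with 1 gene higher in each. Bgn, the proteoglycan biglycan, averaged 45.2 ± 22.3, 155 ± 139 and 121 ± 87.8 CPM (SD, n = 3 each), far above Dcn and Lum, and Prelp 7.88 ± 1.44, 10.99 ± 5.598 and 16.9 ± 6.54. Tsku stayed at 6.13 ± 0.642, 6.13 ± 1.61 and 5.98 ± 1.78 CPM.

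The relatives of Fap, S100a4 and Pdpn gave medians near that of all genes. Of the prolyl peptidases related to Fap, 6 of 7 were tested, with 0 and 2 higher at an unadjusted edgeR p under 0.05 (medians -0.04 and -0.01). Without the 2 libraries apart on the principal component, 0 were higher in hairpin 2 and its median was 0.05. Dpp8 averaged 115 ± 6.86, 109 ± 9.11 and 141 ± 9.29 CPM (SD, n = 3 each). Of the S100 list 10 of 17 were tested, with 0 changed in the hairpin 1 label and 1 lower in hairpin 2 (medians 0.14 and -0.03). The medians were -0.20 in that label without its replicate 1 and -0.22 in hairpin 2 without its replicate 3. S100pbp, among the 10, encodes a protein that binds an S100 protein and is not itself of the family. S100a1 averaged 89.4 ± 29.8, 78.9 ± 14.2 and 58.4 ± 12.2 CPM. Of the podoplanin partners 8 of 10 were tested, with 0 and 1 higher (medians 0.00 and 0.05), or medians of -0.15 in the label hairpin 1 without its replicate 1 and -0.05 in hairpin 2 without its replicate 3. Among them were Cd44, the hyaluronan receptor, and the membrane linker Msn, both far better counted than Pdpn.

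**Figure D5:**
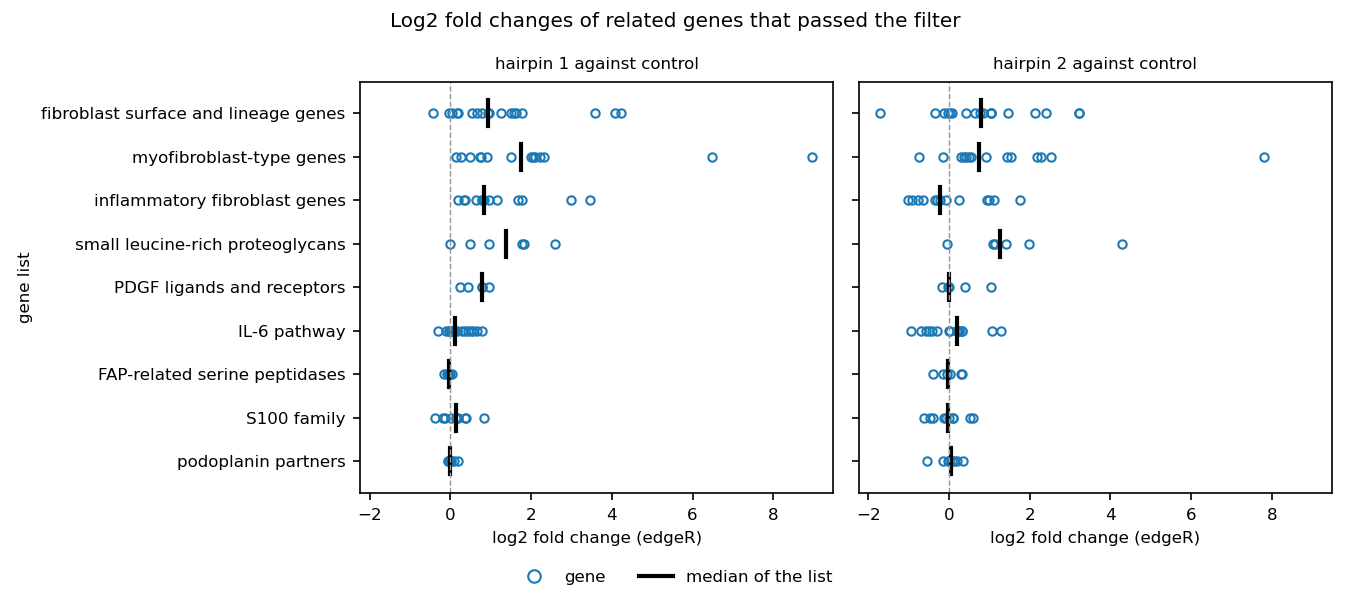
Log2 fold change of each tested gene in the 9 related lists, a circle for each gene and a bar at the list's median, for each hairpin against control. Some genes passed the filter only through hairpin libraries, so the medians are a description. The fibroblast and proteoglycan lists have medians above 0 in both comparisons, the inflammatory list lies at 0.84 in the hairpin 1 label (-0.52 without its replicate 1) and at -0.22 in hairpin 2, and the lists related to Fap, S100a4 and Pdpn have medians close to 0; the circle farthest right is Cthrc1, whose value depends on the prior count.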

How the data were processed

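Per the labels' protocols, TRIzol was used to extract RNA for the 9 libraries and a NovaSeq to sequence them. The authors deposited whole-number counts per gene symbol, 1 file a library. STAR 2.7.0d and Cufflinks, and human genome builds although the symbols are of mouse, are named per the submitters' processing notes. How reads were counted, with which annotation and whether by strand is not stated in the sources used here, so reads of overlapping genes cannot be told apart. Groups came from the titles, since the genotype labels of the hairpin samples count upwards from Fbxo38 to other names. Library totals of 15322163 to 17342554 counts set the precision, and intervals for a count of 0 (3 counts) cover counting error only.

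Counts were filtered with filterByExpr (minimum count 10, minimum total 15), scaled by TMM and tested in edgeR 4.0.16 (R 4.3.3) with a quasi-likelihood model, robust option, over the 9 libraries, with Benjamini-Hochberg adjustment over 14193 genes and a threshold of 0.05. Symbols on several entries (102) were kept apart. CPM uses TMM-scaled totals. The fit and the correlation test were checked on simulated data. DESeq2 1.42.0, limma 3.58.1 (voom), other scalings and filters, a replicate block and leaving out libraries were alternatives. Within groups, the chi-square between libraries was 20.7 to 72.3 times its degrees of freedom, so none was treated as deposited again. Genes named were the 8 members, Fbxo38, 3 most-alike genes a member and up to 3 most abundant genes a list, some of which were left to the counts. Members, lists and rules were chosen with earlier results of these data known. Positions are of GRCm38 (GENCODE M21), matched by symbol.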

Additional observations from a re-analysis of the deposited data

How the results depend on the processing

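With 3 libraries a group, the low counts of Pdgfra, Fap, Dcn and Lum gave wide intervals, and those of Pdpn were narrow. Of 462 member values under the alternatives, 435 kept their direction and 27 reversed. Of the 454 with an adjusted p, 0 passed 0.05, and for the other 8, all from DESeq2, no adjusted p was given. Lum fell below the filter without both libraries that stood apart and under the stricter filter, and Lum and Fap did in the fits of only control and 1 hairpin, so these have no value there. For Pdgfra and Fap against control the direction held in each alternative that gave a value, with a log2 fold change under leave-one-out of 1.21 to 2.63 and 1.75 to 2.48 for the label hairpin 1 and of 1.07 to 2.60 and 2.06 to 2.81 for hairpin 2. The number of genes past the threshold in hairpin 2 against control was 0, but 303 with DESeq2, 4 without the filter and 0 to 2 with 1 library left out. For the mean of both hairpins it was 8 with DESeq2, and between the hairpins 89 with DESeq2, 2 without the filter and 0 to 1 with 1 library left out. Of the reversals in log2 fold change, leaving out both libraries that stood apart gave -0.33 for Thy1 in the label hairpin 1, -0.088 for Thy1 in the mean of both, and 1.19 for Pdgfra, 2.32 for Dcn and 0.49 for Thy1 between the hairpins. Limma-voom gave -0.0486 for Fap between the hairpins. With 1 library left out, Thy1 ran from -0.33 to 1.12 in the label hairpin 1, and Dcn from -0.52 to 3.46, Thy1 from -0.16 to 0.67 and Pdpn from -0.16 to 0.12 in hairpin 2. Thy1 ran from -0.0819 to 0.89 in the mean of both. Between the hairpins the ranges were -1.20 to 0.94 for Pdgfra, -0.18 to 0.61 for Fap, -3.22 to 1.82 for Dcn, -0.33 to 1.78 for Lum and -0.86 to 0.50 for Thy1. The cause was not tested. Libraries with the same number correlated between -0.409 and 0.138 in their deviations, so the numbers were not taken to pair them. With a replicate block 0 genes passed in each comparison, Pdgfra was at 2.09 and 2.07 and Fap at 2.28 and 2.34 for the label hairpin 1 and hairpin 2, and Pdpn turned to 0.0059 in hairpin 2. With a prior count of 0.5, 5 pairs of members passed in place of 7. The pairs that no longer passed were Pdgfra with Lum and S100a4 with Il6.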
